A study of Mus musculus with 28 samples.

Results

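The 9 genes described here encode enzymes that make or recycle nucleotides, the building blocks of RNA and DNA. They are Impdh1, Impdh2 and Gmps of the guanylate branch of purine synthesis, Cad, Dhodh and Umps of de novo pyrimidine synthesis, and Upp1, Uck1 and Uck2 of pyrimidine salvage and breakdown. They were taken by gene symbol from the 43280 rows of the deposited count tables, and all 9 were present in both tables and passed the filter on low counts. The genes were chosen by name with the levels and fold changes of these same libraries already known, and the choice sets no threshold on a value. The tests below, adjusted over all 17519 genes tested, therefore describe these libraries and are not independent evidence about the 9 genes.

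The samples were male germ cells sorted from mouse testis by the PIWIL2-eGFP reporter, from mice with a working Stra8 gene (WT) or a Stra8 knockout (KO), of a strain derived from C57BL/6 and 129s4/SvJae. All mice, controls included, were given WIN 18,446, which blocks the synthesis of retinoic acid, for 7 days. Cells were collected then (0 h) or 12, 18, 48, 72, 96 or 120 h after a dose of retinoic acid, the vitamin A derivative that starts spermatogonial differentiation. PolyA RNA was sequenced from 2 libraries in each of 14 groups, and the series asks how spermatogonia progress towards meiosis in WT and KO testes. The sort selects on the reporter alone, so each library averages all reporter-positive cells of its sample. Fewer cells of a type cannot be told apart from less RNA per cell. The labels do not say that replicates are separate animals, so the p-values measure only the spread between these libraries, which may be technical. The sources used here give no animal ages.

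A cell can build uridine nucleotides from simple precursors or recover them from free uridine. CAD, a multifunctional protein, carries out the opening steps of the de novo route, DHODH, a mitochondrial enzyme, makes orotate, and UMPS turns orotate into UMP. In salvage, the uridine-cytidine kinases UCK1 and UCK2 phosphorylate uridine and cytidine, while uridine phosphorylase, encoded by Upp1, splits uridine into uracil and ribose phosphate. On the purine side, IMP dehydrogenase, encoded by Impdh1 and Impdh2, commits IMP to guanine nucleotides, and GMP synthetase, encoded by Gmps, completes GMP. In dividing cells the demand for these nucleotides comes from RNA and DNA synthesis.

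The promoters of 4 of the genes are shown because Upp1 and Impdh1 separated the genotypes most clearly, Cad was the most abundant gene per kb of exon, and Impdh2 held a match to a searched motif. Each window runs from 250 bases before to 50 bases after a transcript start, 5′ to 3′ on the gene's strand, from RefSeq on GRCm38.p6. Capitals mark a match on either strand to CACGTG (the E-box of Myc and MiT factors) or to CNCCTCAG (the motif reported for STRA8 binding). The windows are chr11:9117853-9118152 on the plus strand for Upp1, chr6:29216315-29216614 on the minus strand for Impdh1, chr5:31054530-31054829 on the plus strand for Cad and chr9:108560186-108560485 on the plus strand for Impdh2.
Upp1: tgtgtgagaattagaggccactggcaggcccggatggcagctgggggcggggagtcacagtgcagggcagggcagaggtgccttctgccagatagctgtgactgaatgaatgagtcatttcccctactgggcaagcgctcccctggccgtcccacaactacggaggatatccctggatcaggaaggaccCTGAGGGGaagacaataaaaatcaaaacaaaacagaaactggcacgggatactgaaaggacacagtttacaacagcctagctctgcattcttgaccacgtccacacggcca
Impdh1: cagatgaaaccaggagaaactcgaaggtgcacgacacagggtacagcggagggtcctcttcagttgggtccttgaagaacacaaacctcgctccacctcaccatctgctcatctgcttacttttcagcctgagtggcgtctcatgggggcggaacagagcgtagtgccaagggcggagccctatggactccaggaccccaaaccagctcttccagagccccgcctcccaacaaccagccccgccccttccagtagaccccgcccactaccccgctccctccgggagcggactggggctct
Cad: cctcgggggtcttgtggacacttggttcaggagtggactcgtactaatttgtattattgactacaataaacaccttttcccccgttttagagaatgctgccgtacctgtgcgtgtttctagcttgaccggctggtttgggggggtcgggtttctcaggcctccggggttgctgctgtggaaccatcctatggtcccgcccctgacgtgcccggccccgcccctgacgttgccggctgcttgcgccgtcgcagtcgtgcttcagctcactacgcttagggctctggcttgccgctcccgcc
Impdh2: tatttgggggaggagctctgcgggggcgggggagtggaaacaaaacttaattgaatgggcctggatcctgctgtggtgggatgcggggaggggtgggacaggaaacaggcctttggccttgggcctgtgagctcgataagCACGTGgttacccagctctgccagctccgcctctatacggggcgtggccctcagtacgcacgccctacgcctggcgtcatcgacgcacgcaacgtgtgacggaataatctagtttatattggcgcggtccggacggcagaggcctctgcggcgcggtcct
RefSeq windows matched 8 of the 9 genes, all but Dhodh. CNCCTCAG was found in Upp1 alone among these 8, read here on the opposite strand, and 7.94% of all 32817 windows of this length held it. The same match lay in a second, overlapping Upp1 window, and the remaining Upp1 window held none. CACGTG was found in Impdh2 alone among the 8, and 7.15% of all windows held it. The E2F sites TTTCCCGC and TTTGGCGC and the retinoic acid response element, a direct repeat of AGGTCA spaced by 5 bases, each searched on both strands, occurred in none of the 8 genes' windows, against 1.07%, 0.515% and 0.00914% of all windows. These matches describe letters only.

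Reads counted in genes ranged from 5752475 to 10135820 in WT and from 913055 to 9507928 in KO libraries. Libraries are named by the count table they came from, first or second. The second-table KO libraries at 72, 96 and 120 h were shallow, with 1078460, 913055 and 1030025 reads, and the next smallest library had 3340355. The deposited CPM tables held other values for these same 3 groups, and their low values gave whole reads (totals of 4479729, 4190650 and 4122223), called recovered reads below. The sources used here do not say which set is right, and the main fit used the counts. Log2 ratios to the first-table KO libraries were taken over 7989 genes with at least 20 CPM there. Their SD was 0.73 for the shallow libraries and 0.25 for the recovered reads, which were deeper. The mitochondrial share of reads was 1.98 to 3.06% for the 7 WT libraries of the first table and 3.21 to 8.56% for the other 21. Stra8 was lower in both KO libraries than in both WT libraries at 7 of 7 times (0 to 62.2 CPM in KO, 7.66 to 1043 CPM in WT). One KO library stood apart in Stra8, the first at 48 h, with 62.2 CPM against 2.10 in its partner and at most 30.7 in any other KO library. The germ cell markers (Ddx4, Dazl, Piwil2, Tdrd1 and Mael) were led by Piwil2 (1053 to 3191 CPM), the gene of the sorting reporter. Their sum lay between 3723 and 4977 CPM in WT up to 48 h and between 2374 and 3574 from 72 h on. In KO it lay between 3543 and 4358. The 8 Sertoli cell markers, led by Wt1, summed to 24.7 to 72.7 CPM in WT (median 32.7) and 38.2 to 223 in KO (median 56.1), highest in the shallow 72 h library. The 5 peritubular myoid markers, led by Myh11, summed to 8.32 to 28.9 CPM in WT (median 15.6) and 22.2 to 51.9 in KO (median 32.0). The 6 Leydig cell markers reached at most 15.8 CPM, the 6 macrophage and leukocyte markers 9.27, the 5 erythroid markers 6.52 and the 5 spermatid markers 2.35. One Leydig and 1 spermatid marker were at 0 in every library. The 4 endothelial markers summed to 39.1 and 32.8 CPM in WT at 0 h and 15.1 and 8.22 in WT at 120 h, and to 38.3 and 32.3 and then 26.6 and 20.4 in KO. Sertoli and myoid sums thus had higher medians in KO, with overlapping ranges. Germ cell sums were lower at late times in WT, and endothelial sums were lower at 120 h than at 0 h in both genotypes. Their part in the differences below was not tested.

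Per kb of exon, Cad was the most abundant of the 9 genes, with a median of 88.8 CPM per kb over the 28 libraries, followed by Impdh2 at 73.5. Impdh1 (28.01), Upp1 (24.4), Umps (23.8), Gmps (16.8), Uck2 (13.1) and Uck1 (11.9) came next. Neighbours in this order overlapped in their library ranges, so the order between them is not fixed. Dhodh was lowest, at 4.07 CPM per kb, and its highest library (5.37) was below the lowest Cad library (50.02). As a ratio of the highest to the lowest library, Upp1 varied most, 16.5-fold between 4.75 and 78.5 CPM per kb. The fewest reads behind any of the 252 values was 12.

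Upp1, the uridine phosphorylase gene (ENSMUSG00000020407, GRCm38 chr11:9118103-9136170, plus strand, 11 exon blocks), fell sharply after retinoic acid in both genotypes and was higher in KO at every later time. In WT, the first and second libraries held 123 and 99.75 CPM at 0 h, 23.4 and 29.5 after 12 h, 13.1 and 17.05 after 18 h, and 16.4 and 9.31 after 48 h. They then held 24.3 and 23.8 CPM after 72 h, 18.8 and 17.9 after 96 h, and 23.1 and 22.3 after 120 h. All 12 later WT libraries were thus below both 0 h libraries.

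In WT the edgeR log2 fold change of Upp1 against 0 h was -2.08 ± 0.26 (SE) at 12 h, -2.94 ± 0.27 at 18 h and -3.11 ± 0.27 at 48 h, an 8.64-fold lower level at 48 h, with adjusted p of 7.67e-06, 9.56e-08 and 2.50e-07. It was -2.19 ± 0.26 at 72 h, -2.57 ± 0.26 at 96 h and -2.19 ± 0.26 at 120 h. Each of these 6 differences passed the threshold of 0.05 in every leave-one-out fit and under every other alternative run.

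KO libraries contained 145.5 and 154 CPM of Upp1 at 0 h, 56.35 and 60.1 after 12 h, 56.1 and 45.8 after 18 h, and 40.4 and 49.7 after 48 h. Thereafter they held 55.9 and 62.1 CPM after 72 h, 101 and 56.95 after 96 h, and 110.2 and 151.5 after 120 h, while the recovered reads gave 49.8, 58.9 and 117 CPM at these 3 times. At 120 h the second KO library was inside the 0 h range and the first was below it. Both 0 h KO libraries lay above both 0 h WT libraries, but that difference (0.40 ± 0.24, adjusted p = 0.74, edgeR) did not pass.

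In KO, Upp1 fell as well, with log2 changes of -1.34 ± 0.25 at 12 h, -1.49 ± 0.25 at 18 h and -1.72 ± 0.25 at 48 h, a 3.29-fold drop at 48 h, with adjusted p of 0.00137, 0.000676 and 0.000587 (edgeR). The difference at 72 h was -1.36 ± 0.26 (adjusted p = 0.0148, edgeR), which rose to 0.0682 without the 3 shallow libraries and to as much as 0.157 when either 0 h or either 72 h KO library was left out. At 96 h (-0.88 ± 0.25, adjusted p = 0.0714, edgeR) and 120 h (-0.24 ± 0.25, adjusted p = 0.78) it did not pass. Between 48 and 120 h Upp1 rose in both genotypes, by 1.48 ± 0.26 in KO (adjusted p = 0.00543, edgeR) and by 0.92 ± 0.26 in WT (adjusted p = 0.0198). The KO rise was lost without the first KO library at 48 h, the one that stood apart in Stra8 (1.30 ± 0.33, adjusted p = 0.143). The WT rise was lost without the second 48 h library or either 120 h library (up to 0.357) and in a fit on WT libraries alone (0.0644).

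No KO and WT libraries of Upp1 overlapped at any of the 7 times. How many of all genes separate 2 libraries from 2 others was not counted. Such separation, here and for the other genes, is therefore description only. KO exceeded WT by 1.15 ± 0.25 on the log2 scale at 12 h (adjusted p = 0.0219, edgeR), by 1.85 ± 0.26 at 18 h (0.000128), by 1.79 ± 0.26 at 48 h (0.00400) and by 1.23 ± 0.26 at 72 h (0.0112). The gap was 2.09 ± 0.26 at 96 h (adjusted p = 0.000485, edgeR) and 2.36 ± 0.26 at 120 h (1.97e-05), where KO stood 5.12-fold above WT. As a mean over the 7 times, the KO level was higher by 1.55 ± 0.10, or 2.94-fold (adjusted p = 1.62e-10, edgeR). The calls at 18, 96 and 120 h passed whichever library was left out. The call at 12 h was lost without any 1 of its 4 libraries, that at 48 h without the second WT or second KO library, and that at 72 h without the first WT or either KO library, with adjusted p of up to 0.260, 0.180 and 0.0805.

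The change from 0 h was compared directly between genotypes. At 120 h the KO change in Upp1 exceeded the WT change by 1.96 ± 0.35 on the log2 scale (adjusted p = 0.0354, edgeR), and Upp1 was the 1 of the 9 genes called in that test, where 0.0685% of all genes were called. The p was 0.062 without the 3 shallow libraries and 0.0172 with recovered reads. The call was lost without either KO library at 0 or 120 h, the first WT library at 0 h or the second at 120 h (up to 0.247). Over all times together, the genotype by time interaction of Upp1 had an adjusted p of 0.074 (edgeR), and of 0.0481 and 0.0201 with a replicate block common to both genotypes or separate for each. Same-numbered WT and KO libraries did not deviate together (median r of -0.154, over 0.1 in 8 of 49 pairs), and the numbers of the KO columns are exchanged between the count and CPM tables, so the numbers do not tie WT to KO libraries.

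**Figure D1:**
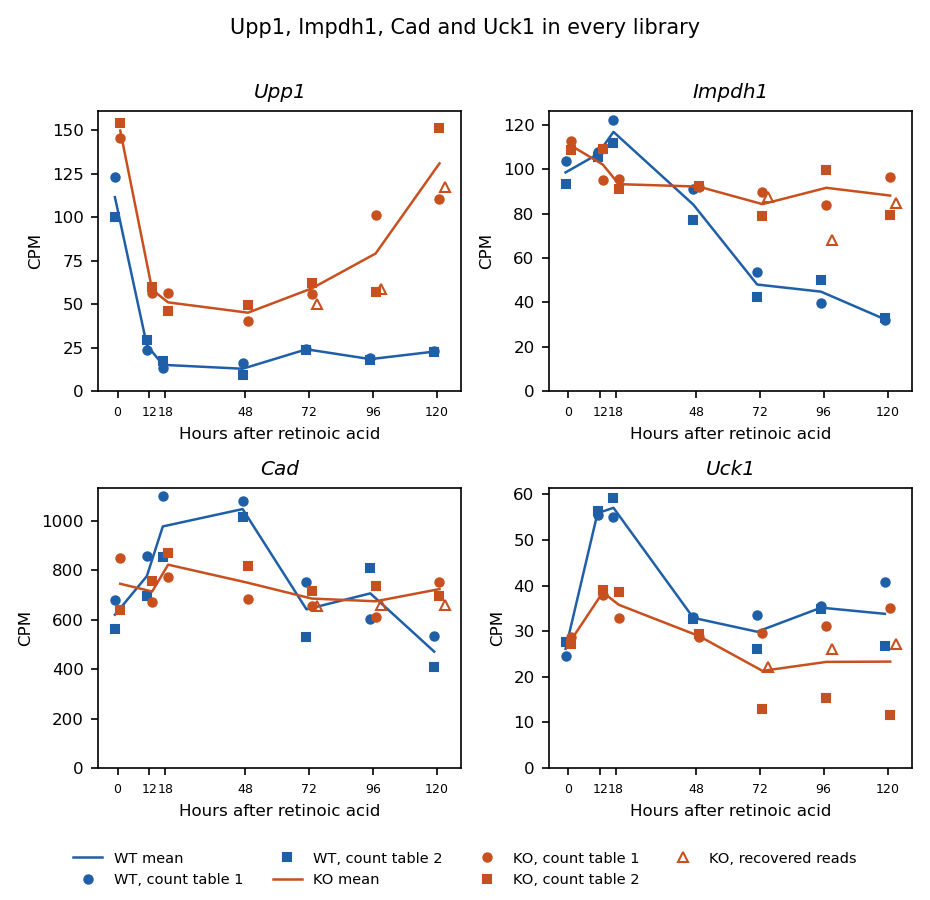
CPM of Upp1, Impdh1, Cad and Uck1 against hours after retinoic acid, with 1 point per library (circles, first count table; squares, second), lines through the mean of the 2 libraries and triangles for the KO recovered reads; WT, KO and triangles are offset sideways for legibility. Upp1 is higher in KO at all 7 times, Impdh1 falls to 32.0 and 32.8 CPM in WT at 120 h, Cad peaks in WT at 18 and 48 h, and Uck1 peaks in WT at 12 and 18 h.

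Impdh1, 1 of the pair of IMP dehydrogenase genes (ENSMUSG00000003500, chr6:29200434-29216364, minus strand, 17 exon blocks), fell late in WT and showed no called change in KO. The WT libraries contained 104 and 93.4 CPM at 0 h, 108 and 106 after 12 h, 122 and 112 after 18 h, and 91.2 and 77.0 after 48 h. The level was then 53.8 and 42.3 CPM after 72 h, 39.8 and 49.9 after 96 h, and 32.0 and 32.8 after 120 h. From 72 h on, every WT library was below every earlier WT library, as was every WT sum of germ cell markers.

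KO libraries contained 113 and 109 CPM of Impdh1 at 0 h, 95.2 and 109 after 12 h, 95.5 and 91.2 after 18 h and 92.0 and 92.5 after 48 h. Later they held 89.9 and 78.8 CPM after 72 h, 83.75 and 99.7 after 96 h, and 96.8 and 79.6 after 120 h, with recovered reads at 87.7, 68.25 and 84.9. All KO libraries from 18 h on were below both KO libraries at 0 h. The KO libraries at 72, 96 and 120 h were all above the WT libraries of the same time, in the counts and in the recovered reads.

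Against 0 h, Impdh1 in WT changed by -1.01 ± 0.18 at 72 h (adjusted p = 0.000715, edgeR), by -1.12 ± 0.18 at 96 h (8.12e-05) and by -1.50 ± 0.18 at 120 h (3.82e-06), a 2.84-fold fall, and all 3 passed in every leave-one-out fit. The largest KO difference was -0.39 ± 0.18 at 72 h (adjusted p = 0.348, edgeR). KO exceeded WT by 0.76 ± 0.18 at 72 h (adjusted p = 0.0196, edgeR), by 0.94 ± 0.18 at 96 h (0.00564) and by 1.32 ± 0.18 at 120 h (0.00012), which is 2.502-fold. The call at 72 h was lost without the second WT or the first KO library (up to 0.201) and the call at 96 h without the first WT or the first KO library (up to 0.0718), while the call at 120 h held throughout. As a mean over times KO was 0.43 ± 0.07 higher (adjusted p = 3.25e-05, edgeR).

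Impdh1 was the 1 gene of the 9 that passed the genotype by time interaction (adjusted p = 0.034, edgeR), where 0.097% of all genes passed. Leaving out single libraries ended this call in 11 of 28 cases, with an adjusted p of up to 0.121. The libraries concerned were both 12 h and the first 18 h library in WT, and in KO both libraries at 0 and 18 h and the first at 12, 48, 72 and 120 h. At 120 h alone, the KO change exceeded the WT change by 1.18 ± 0.25 (adjusted p = 0.0705, edgeR), with 0.0193 for recovered reads and 0.0417 and 0.0158 with the common and the separate replicate block.

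Impdh2, the other IMP dehydrogenase gene (ENSMUSG00000062867, chr9:108560286-108565584, plus strand, 9 exon blocks), was called in no comparison. WT libraries contained 288.5 and 284.5 CPM at 0 h, 259 and 321 after 12 h, 317 and 266 after 18 h, 282 and 176 after 48 h, 303 and 223 after 72 h, 278 and 129.7 after 96 h, and 267 and 220.2 after 120 h. KO libraries contained 181 and 202 CPM at 0 h, 242 and 203 after 12 h, 302 and 219 after 18 h, and 227 and 199 after 48 h. At 72, 96 and 120 h the first KO libraries held 225, 274 and 159.7 CPM and the shallow second ones 30.6, 35.05 and 33.0.

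Recovered reads for these 3 groups gave 139, 139 and 136 CPM of Impdh2. Over the 3 shallow libraries the mean was 32.9 CPM against 219.6 in the partner libraries, a log2 ratio of -2.70, and 2.20% of 7989 genes with at least 20 CPM in the partners had a lower ratio. Uck1 had the next lowest ratio of the 9 genes (-1.20, with 4.77% of genes lower), and the other 7 lay between -0.31 and 0.26. The standard errors of Impdh2 against 0 h were 0.82 to 0.84 on the log2 scale, so changes of that size were not detectable.

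The mean difference of Impdh2 between KO and WT was -0.56 ± 0.31 (adjusted p = 0.176, edgeR). With recovered reads it was -0.34 ± 0.12 (adjusted p = 0.0320) and without the 3 shallow libraries -0.23 ± 0.12 (adjusted p = 0.132). A processed pseudogene, Impdh2-ps (chr8:100030558-100032102, plus strand), shares 73.9% of the 50-base words of the longest Impdh2 transcript, and it was not matched to a row of the tables, so reads could have been split or lost between the copies.

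Gmps (ENSMUSG00000027823, chr3:63976106-64022579, plus strand, 16 exon blocks), which encodes GMP synthetase, ranged from 75.8 to 192 CPM over the 28 libraries. At 120 h WT held 137.5 and 140.1 CPM and KO 85.7 and 89.3, with no overlap, and KO was 0.81 ± 0.27 lower on the log2 scale (adjusted p = 0.0426, edgeR). This call was lost in 18 of 28 leave-one-out fits (up to 0.206), with recovered reads (97.0 CPM, adjusted p = 0.0607), without the shallow libraries (0.135) and in both limma fits on deposited CPM (0.0803 and 0.0818). At 0 h KO held 81.6 and 128 CPM of Gmps, and against this start no KO time passed (largest 0.65 ± 0.26 at 12 h, adjusted p = 0.137, edgeR).

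**Figure D2:**
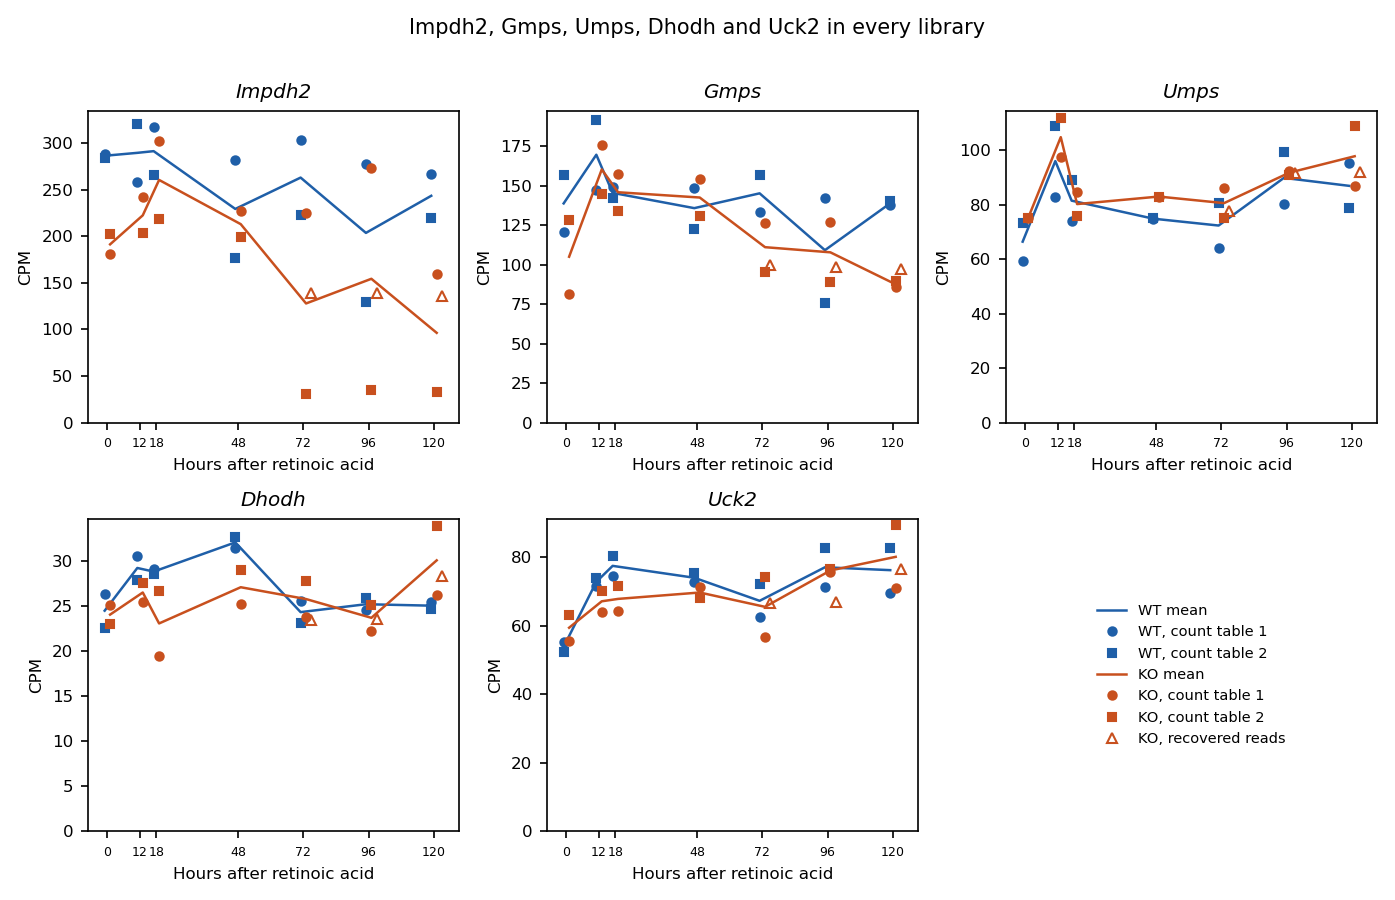
CPM of Impdh2, Gmps, Umps, Dhodh and Uck2 in every library against hours after retinoic acid, drawn as circles (first count table), squares (second), triangles (KO recovered reads) and lines through the group means, offset sideways for legibility. The second-table KO squares of Impdh2 at 72, 96 and 120 h lie at 30.6 to 35.05 CPM, below the triangles at 136 to 139, and Gmps at 120 h is lower in both KO libraries.

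The Impdh2 share of the IMP dehydrogenase pair was computed per kb of exon. It was 74.8 and 76.5% in WT at 0 h, between 71.0 and 76.8% at 12, 18 and 48 h, 85.8 and 84.9% after 72 h, 88.2 and 73.6% after 96 h, and 89.9 and 87.8% after 120 h. The higher late WT shares go with the fall of Impdh1 described above. In KO the share was 63.2 and 66.5% at 0 h, below both WT libraries. At 12, 18 and 48 h it was 66.6 to 77.2%, overlapping WT at each of these times. The first KO libraries held 72.8, 77.8 and 63.9% at 72, 96 and 120 h, the recovered reads 62.8, 68.6 and 63.2%, and the shallow libraries 27.3 to 30.7%. The shares are descriptions per library and were not tested.

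Cad, for the multifunctional enzyme that opens pyrimidine synthesis (ENSMUSG00000013629, chr5:31054780-31078479, plus strand, 45 exon blocks), rose to a peak in WT at 48 h and fell again by 120 h. In WT it held 679 and 563 CPM at 0 h, 859 and 695 after 12 h, 1101 and 855 after 18 h, and 1079 and 1018 after 48 h. Thereafter it held 753.5 and 532 CPM after 72 h, 605 and 809 after 96 h, and 534 and 409 after 120 h. All libraries at 12, 18 and 48 h were above both 0 h libraries, and both 120 h libraries were below them.

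The 14 KO libraries of Cad stayed between 612 and 871 CPM, with 852 and 640.0 at 0 h, 684 and 816 after 48 h and 752 and 697 after 120 h. In WT the rise at 48 h was 0.75 ± 0.21 (adjusted p = 0.0196, edgeR). It was lost without any 1 of the 4 libraries at 0 and 48 h (up to 0.140) and in a fit on WT libraries alone (0.0675). At 18 h the value was 0.61 ± 0.21 (adjusted p = 0.0611), with 0.0471 and 0.0227 with the replicate block. From 48 to 120 h Cad fell by 1.04 ± 0.21 in WT, or 2.06-fold (adjusted p = 0.00176, edgeR), and this held in every leave-one-out fit, with an adjusted p of up to 0.0345. In KO the same difference was -0.09 ± 0.21 (adjusted p = 0.862). No KO against WT difference in Cad passed, the widest being -0.48 ± 0.21 at 48 h (adjusted p = 0.536) and 0.48 ± 0.21 at 120 h (0.122), and the genotype by time interaction had an adjusted p of 0.573 (edgeR).

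Dhodh and Umps, which carry the pathway from dihydroorotate to UMP, varied less. Dhodh (ENSMUSG00000031730, chr8:109591343-109608673, minus strand, 7 exon blocks) stayed between 19.4 and 34.0 CPM in all 28 libraries, and no comparison called it. Umps (ENSMUSG00000022814, chr16:33954782-33967038, minus strand, 6 exon blocks) stayed between 59.35 and 112 CPM. It was 59.35 and 73.4 CPM in WT at 0 h and 95.1 and 78.6 after 120 h, a rise of 0.49 ± 0.18 (adjusted p = 0.0438, edgeR) that was lost in 27 of 28 leave-one-out fits (up to 0.552) and under 9 of 11 other settings.

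Umps at 12 h was 82.9 and 109 CPM in WT and 97.6 and 112 in KO, above both 0 h libraries in each genotype. Those differences were 0.52 ± 0.18 in WT (adjusted p = 0.0635, edgeR) and 0.51 ± 0.18 in KO (0.0818), and with a block for the replicate within genotype the WT adjusted p was 0.0314. With the same block the WT difference at 96 h, 0.46 ± 0.16, had an adjusted p of 0.0338. An antisense transcript, Gm15829, covers 6.11% of the exonic bases of Umps. Whether counting used strand is not known here, so reads of this pair may be mixed.

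Uck1, 1 of the kinase genes that recapture uridine (ENSMUSG00000002550, chr2:32255002-32260159, minus strand, 6 exon blocks), rose early in WT and had returned part of the way by 48 h. The WT libraries contained 24.6 and 27.7 CPM at 0 h, 55.45 and 56.3 after 12 h, 55.0 and 59.1 after 18 h, and 33.1 and 32.7 after 48 h. Later WT libraries held 26.2 to 40.9 CPM. KO libraries contained 28.8 and 27.2 CPM at 0 h, 37.9 and 39.1 after 12 h, 33.0 and 38.6 after 18 h and 28.6 and 29.3 after 48 h.

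The early WT libraries of Uck1 stood above all other libraries of either genotype. The WT rise was 1.09 ± 0.34 at 12 h (2.13-fold, adjusted p = 0.0399, edgeR) and 1.08 ± 0.34 at 18 h (adjusted p = 0.0399). The 12 h call was lost without either WT library at 0, 12 or 48 h, the first KO library at 0 h or either at 12 h, and the 18 h call without either WT library at 0 or 18 h or the same KO libraries (up to 0.261 and 0.264). KO at 12 h was 0.48 ± 0.34 above its 0 h level (adjusted p = 0.447). KO minus WT at 12 and 18 h was -0.53 ± 0.34 and -0.59 ± 0.34 (adjusted p = 0.541 and 0.450), with no overlap of libraries. The change over time in WT had an adjusted p of 0.0518 (edgeR), and of 0.0208 and 0.0106 with the replicate block.

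At 72, 96 and 120 h the first KO libraries of Uck1 held 29.6, 31.2 and 35.0 CPM, the shallow second ones 13.0, 15.3 and 11.65, and the recovered reads 22.1, 26.0 and 27.2. The mean KO difference over all times was -0.38 ± 0.13 (adjusted p = 0.0265, edgeR), and -0.26 ± 0.08 with recovered reads (0.0109). It was -0.20 ± 0.09 without the 3 shallow libraries (0.0780), and leaving out the first WT library at 72 or 120 h or the shallow KO library at 72 or 96 h also ended the call. A processed pseudogene, Gm4482 (chr6:122792584-122793325, minus strand), shares 24.3% of the 50-base words of Uck1, and it held 0 to 13 reads per library.

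Uck2, the other uridine-cytidine kinase gene (ENSMUSG00000026558, chr1:167222883-167285320, minus strand, 13 exon blocks), stayed between 52.4 and 89.3 CPM. WT held 55.2 and 52.4 CPM at 0 h, 71.4 and 82.75 after 96 h and 69.6 and 82.8 after 120 h. All later WT libraries were above both 0 h libraries. The rise was 0.54 ± 0.16 at 96 h (adjusted p = 0.0144, edgeR) and 0.60 ± 0.16 at 120 h (0.00624). Each call was lost without either WT library at 0 h or the second of its own time (up to 0.205 and 0.248), without a filter on low counts (0.194 and 0.114) and in a fit on WT libraries alone (0.0767 and 0.0592). At 18 and 48 h the WT values were 0.47 ± 0.16 (adjusted p = 0.0553) and 0.45 ± 0.16 (0.0671), and with the replicate block their adjusted p was 0.0403 and 0.0496. KO held 55.6 to 63.2 CPM at 0 h and 70.9 to 89.3 after 120 h. Both KO libraries were above both 0 h libraries at 12, 18, 48, 96 and 120 h, with overlap at 72 h. No KO difference in Uck2 passed, against 0 h or against WT, so the rise is not shown to be particular to WT.

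The Uck2 share of the kinase pair, per kb of exon, was 53.1 and 48.8% in WT at 0 h. It was 39.4 and 39.8% after 12 h and 40.5 and 40.7% after 18 h, below every other WT library, and 52.5 and 53.7% after 48 h. In KO it was 45.9 to 49.5% at 12 and 18 h. The shallow KO libraries held 71.6 to 79.4%, and the recovered reads 56.4 to 60.3%.

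**Figure D3:**
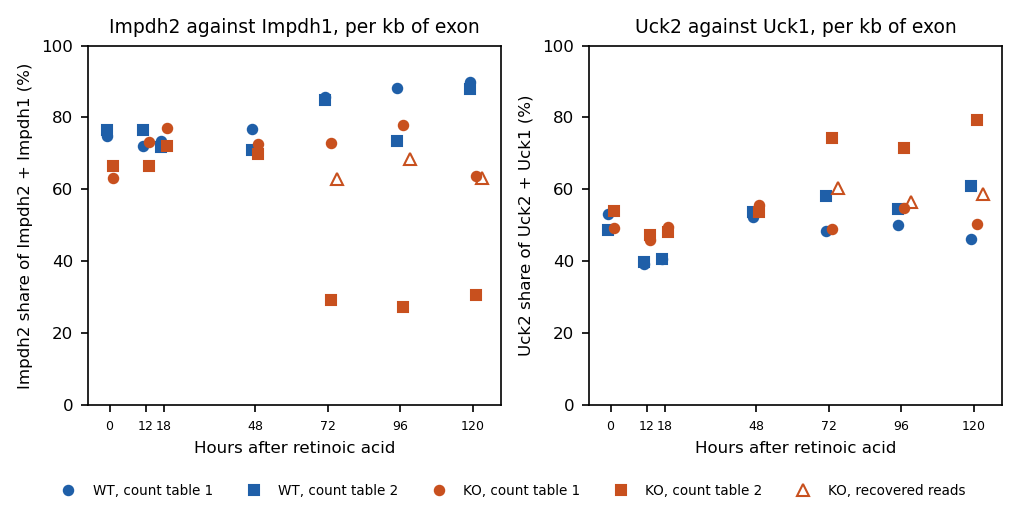
Share of Impdh2 in Impdh1 plus Impdh2 (left) and of Uck2 in Uck1 plus Uck2 (right), in percent of CPM per kb of exon, by hours after retinoic acid, with 1 point per library and triangles for the KO recovered reads. The left panel shows the WT share near 88 to 90% at 120 h and the 3 shallow KO libraries near 27 to 31%, and the right panel shows the WT dip to 39.4 to 40.7% at 12 and 18 h.

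Counted together, 15 of the 54 WT tests of these genes against 0 h passed, and 17.3% of all WT tests over all genes did. By time, 2 of 9 passed at 12 h (10.8% of all genes), 2 at 18 h (11.7%), 2 at 48 h (12.7%) and 2 at 72 h (12.7%). At 96 h 3 passed (26.7%) and at 120 h 4 passed (29.2%), Impdh1 and Upp1 lower and Umps and Uck2 higher. In KO 4 of 54 tests passed, all in Upp1, against 4.16% of all KO tests: 1 at each of 12, 18, 48 and 72 h (8.44%, 8.91%, 4.61% and 0.434% of all genes). No member passed at 96 h (1.7%), where Upp1 alone had an unadjusted p under 0.05 and DESeq2 called it, or at 120 h (0.885%), where Uck2 alone had an unadjusted p under 0.05 and DESeq2 called none. The change over time was called in 3 of 9 genes in WT (Upp1, Impdh1 and Cad, 37.8% of all genes) and 1 in KO (Upp1, 15.6%), with 5 or 6 in WT under the replicate block. Between 48 and 120 h 3 genes were called in WT (14.7%) and 1 in KO (3.12%).

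Between genotypes, no gene of the 9 passed at 0 h, none had an unadjusted p under 0.05, and DESeq2 called none (0.0% of all genes passed in edgeR). At the later times 1 passed at 12 h (1.18%), 1 at 18 h (4.1%), 1 at 48 h (0.274%), 2 at 72 h (4.57%), 2 at 96 h (4.41%) and 3 at 120 h (15.9%). That is 10 of 63 tests, of which Upp1 made up 6, Impdh1 3 and Gmps 1, against 4.35% of all such tests. As a mean over times 3 of 9 passed, Upp1 and Impdh1 higher and Uck1 lower, and 37.7% of all genes passed. The KO against WT tests share no library with each other across times, but they are not independent. Same-numbered WT libraries deviated together in 21 of 21 pairs of times, and all tests of a gene use 1 shared estimate of the spread. The tests against 0 h within a genotype also all share the same 0 h libraries.

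**Figure D4:**
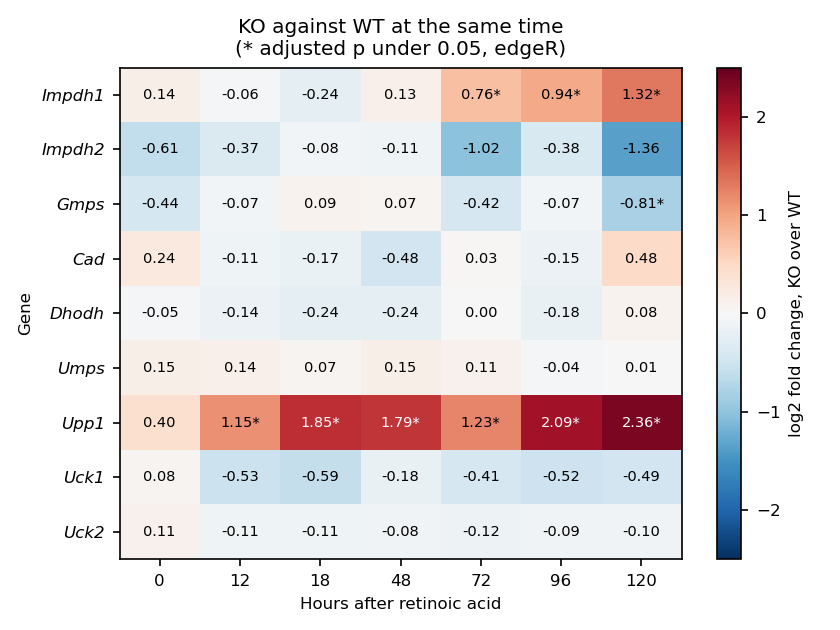
Log2 fold change of KO over WT (edgeR) for the 9 genes (rows) at each time (columns), on a colour scale from -2.5 to 2.5, with a star where the adjusted p over all genes was under 0.05. Upp1 is positive at all 7 times and starred from 12 h on, Impdh1 is starred at 72, 96 and 120 h, and Gmps is starred with -0.81 at 120 h.

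Genes whose group means followed those of a member were ranked by Pearson r of log2(mean CPM + 1) over the 14 groups, among 11549 genes, as a description in which all genes share the same libraries and depth. Upp1 was most like Cd276, a gene for an immune checkpoint protein (r = 0.982), followed by Dusp26 (0.966) and Fam3c (0.966). Cd276 held a mean of 126 CPM in WT at 0 h and 24.0 at 48 h, and 162 and 62.6 in KO. Impdh1 was most like Aldh18a1, a gene of proline synthesis (0.966), Arhgef28 (0.953) and the mitochondrial glutamate carrier gene Slc25a22 (0.952). Cad was most like Tmem74b (0.917), the vitamin transporter gene Slc5a6 (0.909) and Fnbp1 (0.8995). Among the 9 genes themselves Impdh2 and Gmps were the most alike (0.856), and the 3 shallow libraries enter that value.

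The rest of nucleotide metabolism was followed through 66 other genes, of which 60 passed the filter on low counts (Ampd1, Dpys, Slc28a2, Slc28a3, Tymp and Xdh did not). In WT against 0 h, 7 were higher and 0 lower at 12 h, 4 and 3 after 18 h, 6 and 4 after 48 h, 8 and 6 after 72 h, 12 and 13 after 96 h, and 14 and 10 after 120 h. In KO, 11 were higher and 0 lower at 12 h, 5 and 0 after 18 h, 5 and 1 after 48 h, none at 72 h, 3 and 1 after 96 h and 2 and 0 after 120 h. At 72 h in KO, where edgeR called none, 13 of the 60 had an unadjusted p under 0.05 and DESeq2 called 3. Over the 6 times, 14.2% of the WT tests of these 60 genes were called higher and 10.0% lower, against 8.47 and 8.81% over all genes, and in KO 7.22 and 0.556%, against 1.98 and 2.18%. At 12 h the shares were 11.7% higher in WT and 18.3% in KO, against 5.1 and 4.06% of all genes. The median log2 change of the 60 genes in WT at 120 h was 0.13, and that of the 9 genes was 0.10, against -0.02 for all genes tested.

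In WT at 120 h, 15.5% of all genes were called higher than at 0 h and 13.6% lower. Among the 60 genes these shares were 23.3 and 16.7%. Of 5 deoxynucleotide genes, 2 rose and 1 fell in WT at 120 h. The 2 that rose were the ribonucleotide reductase genes Rrm1 and Rrm2, which supply DNA precursors. Tk1, counted with the salvage genes, rose in WT by 120 h as the only 1 of 11 tested there, and 0 fell. Rrm2, the regulated subunit of ribonucleotide reductase, held 10.06 and 17.5 CPM in WT at 0 h and 92.9 and 90.2 after 120 h, a rise of 2.84 ± 0.29 (adjusted p = 7.61e-07, edgeR). In KO at 120 h it held 23.1 and 37.9 CPM, 1.24 ± 0.30 above KO at 0 h (adjusted p = 0.0496) and 1.81 ± 0.29 below WT (0.000389). The thymidine kinase gene Tk1 rose by 1.595 ± 0.32 in WT at 120 h and was 1.23 ± 0.34 lower in KO than in WT (adjusted p = 0.0158, edgeR). The large reductase subunit gene Rrm1 rose by 1.03 ± 0.25 in WT and was lower by 1.04 ± 0.25 in KO.

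In the class of first steps to IMP, 1 of 8 genes rose in WT at 120 h and 2 fell. The class counts at 120 h are small and are description only. They stand beside 15.5% higher and 13.6% lower over all genes. Prps1, which makes the ribose donor of both pathways, held 19.3 and 24.1 CPM in WT at 0 h and 76.4 and 81.8 after 120 h, a rise of 1.97 ± 0.22 (adjusted p = 1.63e-06, edgeR), and KO at 120 h held 37.5 and 41.75. Its relative Prps2, which fell by 1.52 ± 0.40 in WT, was 1.26 ± 0.43 higher in KO than in WT at 120 h. Of 6 folate one-carbon genes, 4 rose and 1 fell: Mthfd1, a cytosolic folate enzyme gene, rose by 1.22 ± 0.18, and its mitochondrial relative Mthfd1l changed by -0.96 ± 0.27 (adjusted p = 0.0102, edgeR). Of 7 genes from UMP to CTP and dTMP, 2 rose and 2 fell, and the thymidylate synthase gene Tyms rose by 0.97 ± 0.21. The deoxycytidylate deaminase gene Dctd changed by -1.49 ± 0.20 in WT at 120 h and was 1.30 ± 0.20 higher in KO than in WT (adjusted p = 0.000331, edgeR). The CTP synthase gene Ctps2 changed by -1.598 ± 0.38, while its counterpart Ctps rose by 0.62 ± 0.14. KO against WT over these 60 genes gave 0 calls in edgeR at 0, 12 and 48 h (1, 6 and 3 genes at an unadjusted p under 0.05, none called by DESeq2), 2 higher and 0 lower at 18 h, 3 and 2 after 72 h, 3 and 1 after 96 h, and 3 and 9 after 120 h. Over the 7 times 2.62% of these tests were called higher and 2.86% lower, against 2.54 and 1.81% over all genes. At 120 h alone the shares were 5% higher and 15% lower, against 7.75 and 8.17% over all genes. The KO groups at 72, 96 and 120 h each include a shallow library. How the differences named here fare without it is not given. The nucleoside transporter gene Slc29a2 was among the 3 higher at 120 h (1.25 ± 0.27, adjusted p = 0.00335, edgeR).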

How the data were processed

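PolyA RNA of sorted mouse germ cells was sequenced in 28 libraries, 2 for each of 14 groups, on an Ion Proton per the labels. The submitters' processing notes name Bowtie, TopHat, Cufflinks and mm10; neither versions, nor a counter, nor any strand setting is stated there. Raw counts for each gene, as deposited by the authors, fill 2 tables. Another 2 tables, which the design had assumed to hold FPKM, turned out to hold CPM made by the authors: 25 of 28 columns equalled a count column over its total within 0.001 CPM. For WT these came from the count table of the same number, for KO from the other table. The remaining 3 (KO at 72, 96 and 120 h) matched none, and 100% of their values were whole reads within 0.1 read; edgeR on these recovered reads called 7363 genes over time in WT and 3544 in KO, against 6615 and 2729 from the counts.

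The main test was edgeR 4.0.16 (R 4.3.3) on the counts, with TMM scaling, its expression filter (17519 genes kept of 43253, after 27 date-like names were left out), 14 group means, robust quasi-likelihood tests and Benjamini-Hochberg adjustment over all genes tested at 0.05. Levels are CPM (count over library total); no count table gave depth beyond 913055 to 10135820 reads per library, which limits the precision of low genes. The fit was also tested on simulated data. DESeq2 1.42.0 and limma 3.58.1 on the deposited CPM (pseudocounts 1 and 0.1) were alternatives, with other filters, scaling, each genotype alone, a replicate block and each library left out. Recovered reads, the fits without the shallow libraries, the differences between changes and the contrast of 120 with 48 h were chosen after seeing the data.

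The members and gene lists were chosen with earlier results of these data known. All 9 members were named; of the other nucleotide genes, the largest changes per class past the threshold with at least 5 CPM in either group could be named (up to 4); likeness named the top 3 genes. Same-numbered WT libraries deviated together in 21 of 21 pairs of times (r of 0.129 to 0.679), KO libraries in 11 of 21, and same-numbered WT and KO libraries in 8 of 49, so the numbers pair WT libraries only; blocked values of KO or between genotypes rest on an unpaired number.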

Additional observations from a re-analysis of the deposited data

Results flagged for a closer look

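Both results listed here were taken up because the change from 0 h differed between WT and KO in a test of that difference. Impdh1 passed the genotype by time interaction with an adjusted p of 0.034 (edgeR), its WT libraries falling to 32.0 and 32.8 CPM at 120 h and its KO libraries at 96.8 and 79.6. Upp1 passed the difference between the KO and the WT change at 120 h with an adjusted p of 0.0354 (edgeR, 1.96 ± 0.35 on the log2 scale), with KO at 110.2 and 151.5 CPM and WT at 23.1 and 22.3. Groups of 2 libraries were too small for the screen for single libraries far from the rest of their group, which needs 4.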

How the results depend on the processing

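Of 37 called results on single genes, 1305 of 1429 alternative values kept direction and call and 124 kept direction only. Of 215 uncalled ones, 8172 alternative values stayed uncalled and 101 passed. None reversed where either value was called, and a change of sign between uncalled values was not counted. Most alternatives leave out 1 of 28 libraries, often one outside the groups compared. These totals therefore say little about how a call depends on its own libraries. Counts are of the 9 genes unless stated. Change over time in WT: 3, with 5 under the replicate block and 6 under a replicate block within genotype. Over time in KO: 1, with 2 in DESeq2, 3 without the filter on low counts, 2 in KO alone, and 1 to 2 with a library left out. Against 0 h in WT: 15, 9 to 17 with a library left out (9 without either WT library at 0 h). Against 0 h in KO: 4, 3 to 5. KO against WT: 10, 8 to 10. Mean over times: 3, with 5 without the filter and 2 to 5 with a library left out (5 without the first KO library at 72 or 96 h). Interaction: 1, with 3 without the filter, 2 in DESeq2, under either replicate block, in limma on CPM with pseudocount 1 and with recovered reads, and 0 to 2 with a library left out. Other nucleotide genes against 0 h in WT: 87, 30 to 87 with a library left out (30 without the first at 0 h). In KO: 28, with 44 in DESeq2, 43 with recovered reads and 5 to 33 with a library left out (5 and 12 without the first or second at 0 h, 18 without the first at 12 h). KO against WT: 23, with 13 without the 3 shallow libraries and 16 to 25 with a library left out. The replicate block ended no call; beyond the values given above, the block within genotype also called Umps (0.0428) in KO at 12 h, Upp1 in KO at 96 h (0.0378), its difference in response at 18 h (0.0331) and 96 h (0.0357) and Umps over time in WT (0.0452), and both blocks called Uck2 over time in WT (0.0498 and 0.0361). Why these counts moved: the cause was not tested. In the 3 shallow libraries Uck1 rested on 12 to 14 reads, Dhodh on 23 to 35 and Impdh2 on 32 to 34.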
